A study of Mus musculus with 2 samples.

Results

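The 10 genes described here encode sensors and regulators of the unfolded protein response: Xbp1, Ern1, Atf6, Atf4, Ddit3, Herpud1, Edem1, Eif2ak3, Dnajb9 and Syvn1. They were chosen by name for their known roles, from 28692 genes listed in the files, and each matched 1 gene ID. Their transcripts were counted as unique molecular identifiers (UMIs, 1 per captured RNA molecule) in single cells of the peritoneal cavity, the fluid-filled space around the gut that holds macrophages, B-1, B-2, T and NK cells. The animals were male C57BL/6 mice aged 10 weeks that had been raised germ-free, without microbes. One library came from wild-type (WT) mice and the other from Xbp1dIEC mice, in which Xbp1 is deleted in intestinal epithelial cells. The Cre line behind the deletion is not given in the sources used here. Each library pooled 4 mice of its genotype, so differences between mice cannot be seen, and 1 library per genotype leaves no replicate check. No test between genotypes was therefore made. All intervals are 95% intervals of counting error only: exact Poisson for a level, and exact conditional binomial for a ratio.

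The unfolded protein response adjusts the capacity of the endoplasmic reticulum (ER), where secreted and membrane proteins are folded. Its sensors in the ER membrane are IRE1 (encoded by Ern1), PERK (Eif2ak3) and ATF6 (Atf6). IRE1 splices the mRNA of Xbp1 into the form that encodes an active transcription factor, PERK phosphorylates eIF2 alpha and so favours translation of ATF4, and ATF6 is cut in the Golgi to release its own transcription factor. Ddit3 encodes CHOP, a factor induced downstream of ATF4. Herpud1, Edem1 and Syvn1 (the ubiquitin ligase HRD1) act in ER-associated degradation, which removes misfolded proteins, and Dnajb9 (ERdj4) is an ER co-chaperone that holds IRE1 in check. XBP1 is best known in the immune system for its role in antibody-secreting plasma cells. The 3′ tags counted here do not tell spliced from unspliced Xbp1 mRNA. The cells studied are not epithelium, so their Xbp1 level says nothing on whether the deletion worked.

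Promoter windows of RefSeq (GRCm38.p6), from 250 bases before to 50 bases after the transcription start, were matched by symbol for 9 of the 10 genes, all except Atf6. Herpud1 and Syvn1 are shown because they alone among the 9 held a searched motif on either strand, and because Herpud1 had the largest difference between the libraries in macrophages and Syvn1 one of the larger differences between cell classes. Capitals mark the matches. In Herpud1 (chr8:94386302-94386402, plus strand) these are the C/EBP-ATF composite element TTGCATCA, 112 to 105 bases before the start, and the ER stress element II (ATTGG, 1 base, CCACG), 52 to 42 bases before it. In Syvn1 (chr19:6046517-6046565, plus strand) they are both ends of the ER stress element (CCAAT, 9 bases, CCACG), 44 to 26 bases before the start.
Herpud1: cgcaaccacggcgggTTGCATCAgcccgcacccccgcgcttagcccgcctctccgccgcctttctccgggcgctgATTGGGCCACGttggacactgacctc
Syvn1: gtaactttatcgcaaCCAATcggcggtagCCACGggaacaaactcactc
The composite element was held by 1.03% of the 27025 genes with a window, the ER stress element by 37 of them (0.137%) and the ER stress element II by 12 (0.0444%). The unfolded protein response element TGACGTGG (0.714% of genes) and the cAMP response core TGACGTCA (2.03%) had no match in the 9 windows. A match is a description of these letters and not a measured binding site. The ER stress element II was added to the search after the data were seen.

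The libraries held 6204 barcodes and 56229330 UMIs in WT, and 6246 barcodes and 49703442 UMIs in Xbp1dIEC, with medians of 8324 and 7280 UMIs per barcode. After a mitochondrial filter and doublet removal, 6058 and 6113 cells were kept. 58 barcode sequences occurred in both libraries. Cells were placed in 7 classes by UMIs of marker genes, which took 4220 WT cells (69.7%) and 4046 Xbp1dIEC cells (66.2%). The class of macrophages with Icam2 or Gata6 held 2506 and 2261 cells, B-1 cells 390 and 655, B-2 cells 885 and 730, T cells 300 and 245, cells with Folr2 and Retnla 80 and 88, cells with Cd209a 36 and 35, and NK cells 23 and 32. Markers that were not used for the gates bore the names out in part. Timd4, a marker of resident macrophages, was at 214 and 216 CPM (UMIs per 1000000 UMIs of the class) in the macrophages, and the 5 markers of stroma or mesothelium summed to at most 0.663 CPM in any class. The B-1 gene Zbtb32, which was itself used in the gates, was at 49.7 and 46.7 CPM in B-2 cells, against 223 and 175 CPM in B-1 cells. That gap follows in part from the gates. The B-2 gate was not clean, since Zbtb32 was found in it at all. Nor was the T gate. The class II antigen presentation gene H2-Ab1 was at 1070 and 1324 CPM in it, against 148 and 103 CPM in macrophages. Free RNA was low by Prg4, a macrophage gene at 2118 and 2349 CPM in the macrophages. It was at 3.03% and 1.70% of that level in B-1 cells and at 1.82% and 1.43% in B-2 cells. Retnla stood at a larger share of its macrophage level, which was 1211 and 1354 CPM. It was at 211 and 258 CPM in B-1 cells and at 128 and 98.8 CPM in B-2 cells. Whether that is free RNA was not tested. Plasma cell barcodes were counted by a minimum of Jchain UMIs together with Sdc1 or Prdm1. Only 1 barcode in these classes, a WT B-1 cell, met this rule. Barcodes with fewer Jchain UMIs were not counted. Jchain was at 17.3 CPM in WT and 7.73 CPM in Xbp1dIEC B-1 cells, so the count does not show that the other cells lacked these genes.

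The sensors differed in where they were found. Ern1 was a transcript of the myeloid classes. In the WT library it was at 13.6 CPM in macrophages (12.2 to 15.05), 17.1 in Folr2/Retnla cells, 13.8 in Cd209a cells, 1.64 in B-1 (0.603 to 3.58), 1.99 in B-2 and 1.59 in T cells. In the Xbp1dIEC library the same classes were at 18.0 (16.1 to 19.95), 25.2, 3.42, 3.79 (2.48 to 5.56), 2.64 and 1.87 CPM. Macrophages thus stood well above B and T cells in both libraries, while the ratios between B-1, B-2 and T cells had intervals that included 0 on the log2 scale. The lymphocyte values rest on 2 to 26 UMIs a class, and those of Cd209a cells on 4 and 1. In B-1 cells Ern1 was at 12.1% and 21.1% of its macrophage level, above the 3.03% and 1.70% of Prg4. Retnla was carried at a larger share than Prg4, and the part of free RNA in the Ern1 values was not tested.

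Eif2ak3 and Atf6 had the opposite arrangement, with B cells above macrophages. Eif2ak3 was at 6.58 CPM in WT macrophages (5.64 to 7.63), 19.99 in B-1 (15.7 to 25.1), 23.2 in B-2 (19.5 to 27.4) and 3.98 in T cells (5 UMIs). The Xbp1dIEC values were 8.83 (7.55 to 10.3), 20.1 (16.9 to 23.8), 21.5 (17.8 to 25.9) and 8.43 CPM (9 UMIs). Both B cell classes were above macrophages and T cells in each library, while the ratios of B-1 to B-2 cells and of macrophages to T cells had intervals that included 0. Atf6 was at 15.3 CPM in WT macrophages (13.9 to 16.9), 27.9 in B-1 (22.8 to 33.9), 28.3 in B-2 (24.3 to 32.9) and 10.3 in T cells (5.50 to 17.7). In Xbp1dIEC it was at 14.9 (13.2 to 16.7), 33.3 (29.1 to 37.9), 24.4 (20.3 to 29.0) and 6.56 CPM (2.64 to 13.5). Both B cell classes were above macrophages and T cells here too. B-1 cells were above B-2 cells in the Xbp1dIEC library (log2 ratio on CPM + 1 of 0.43, 0.13 to 0.77), while in WT the ratio was -0.02 (-0.39 to 0.34). Whether these ratios differ was not tested.

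Xbp1, the factor that IRE1 activates, had the distribution of Ern1. It was at 110.6 CPM in WT macrophages (107 to 115), 89.99 in Folr2/Retnla cells (69.2 to 115), 92.9 in Cd209a cells (61.2 to 135), 27.1 in B-1 (22.0 to 33.0), 32.0 in B-2 (27.6 to 36.8) and 21.5 in T cells (14.1 to 31.2). In Xbp1dIEC it was, in the same order of classes, at 119.9 (115 to 125), 118 (91.7 to 149), 68.4 (41.8 to 106), 42.5 (37.7 to 47.6), 37.6 (32.5 to 43.2) and 36.5 CPM (26.0 to 49.9). Macrophages were above B-1, B-2 and T cells in both libraries, and the intervals of B-1, B-2 and T cells overlapped. The 3 myeloid classes overlapped in WT, while in Xbp1dIEC the Cd209a cells, with 20 UMIs, lay below macrophages. Macrophages were 3.97-fold above B-1 cells in WT (ratio of CPM + 1) and 2.78-fold above them in Xbp1dIEC. Xbp1 in B-1 cells was at 24.5% and 35.4% of its macrophage level, again above the share of Prg4. The part of free RNA in these values was not tested.

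Atf4 and Ddit3, the factors of the PERK arm, had similar levels in macrophages, B-1, B-2 and T cells. Atf4 ran from 57.0 CPM in B-1 (49.5 to 65.2) through 63.6 in T and 72.1 in macrophages to 76.9 in B-2 cells (70.1 to 84.2) of the WT library. In Xbp1dIEC these classes lay between 63.9 CPM in B-1 cells and 71.5 CPM in macrophages. Macrophages were above B-1 cells by log2 ratios of 0.33 (0.13 to 0.55) in WT and 0.16 (0.006 to 0.32) in Xbp1dIEC. B-1 cells were below B-2 cells in WT (log2 ratio -0.43, -0.68 to -0.19), while in Xbp1dIEC the ratio was -0.14 (-0.34 to 0.06). Folr2/Retnla cells were higher than macrophages, at 98.6 CPM (76.7 to 125) in WT and 119 CPM (93.2 to 150) in Xbp1dIEC. Over the 4 larger classes the highest level was 1.35 times the lowest in WT and 1.12 times in Xbp1dIEC. Ddit3 was at 17.3 CPM in macrophages (15.8 to 19.0), 14.2 in B-1 (10.6 to 18.7), 15.6 in B-2 (12.6 to 19.1) and 21.5 in T cells (14.1 to 31.2) of WT, with overlapping intervals throughout. The Xbp1dIEC values were 20.4 (18.5 to 22.6), 20.6 (17.3 to 24.3), 14.4 (11.3 to 18.0) and 15.9 CPM (9.28 to 25.5), where B-2 cells were below macrophages (log2 ratio of macrophages over B-2 of 0.48, 0.15 to 0.88) and below B-1 cells (B-1 over B-2 0.49, 0.11 to 0.94).

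The 4 effectors fell into separate patterns. Edem1, an ER mannosidase-like protein that marks misfolded glycoproteins, was at 64.8 CPM in WT macrophages (61.7 to 67.9), 82.9 in Folr2/Retnla cells, 30.4 in B-1, 28.7 in B-2 and 28.6 in T cells. In Xbp1dIEC it was at 56.8 (53.5 to 60.3), 97.5, 30.5, 21.3 and 48.7 CPM. B-1 cells were 1.41-fold above B-2 cells in the latter library on CPM + 1. Edem1 was thus highest in myeloid cells, apart from the T cells of the Xbp1dIEC library, whose interval (36.4 to 63.9) reached that of macrophages. Dnajb9 was at 53.0 CPM in WT macrophages (50.3 to 55.8), 34.3 in Folr2/Retnla cells, 13.7 in B-1 (10.2 to 18.1), 18.9 in B-2 and 21.5 in T cells. Its Xbp1dIEC levels were 62.8 (59.3 to 66.4), 67.2, 14.9 (12.1 to 18.1), 14.2 and 15.9 CPM, so that macrophages stood 3.68-fold above B-1 cells in WT and 4.02-fold in Xbp1dIEC on CPM + 1.

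Syvn1 was higher in B cells than in macrophages and T cells. It was at 29.8 CPM in B-1 (24.5 to 36.0) and 29.999 in B-2 cells (25.8 to 34.7) of WT, against 10.7 in macrophages (9.52 to 12.1) and 1.59 in T cells, where only 2 UMIs were counted. In Xbp1dIEC it was at 40.1 (35.5 to 45.2), 33.6 (28.9 to 38.9), 11.5 (10.0 to 13.1) and 8.43 CPM. B-1 and B-2 cells overlapped in WT and in Xbp1dIEC. Folr2/Retnla cells were at 22.9 CPM (13.1 to 37.1) in WT and 18.5 CPM (9.23 to 33.1) in Xbp1dIEC. In WT they lay above macrophages (log2 ratio of macrophages over them -1.02, -1.81 to -0.26) and overlapped B cells. Herpud1 was at 102 CPM in B-1 (92.0 to 113), 117 in B-2 (108 to 126), 77.1 in T (62.6 to 94.1), 114 in Cd209a cells (78.2 to 159), 52.0 in macrophages (49.3 to 54.8) and 47.1 in Folr2/Retnla cells (32.4 to 66.2) of WT. All lymphocyte classes were above macrophages. Over macrophages, B-1, B-2 and T cells the highest level was 2.25 times the lowest. In Xbp1dIEC it was 1.41 times the lowest, with 106 (98.9 to 115), 97.1 (88.9 to 106), 78.7 (62.8 to 97.4), 113 (77.6 to 158), 75.6 (71.8 to 79.6) and 97.5 CPM (74.0 to 126). B-1 and B-2 cells were still above macrophages there, whereas T cells and macrophages overlapped.

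NK cells gave too few UMIs to place most members. Herpud1 had the most, 10 UMIs in WT and 16 in Xbp1dIEC. Its NK levels were 123 and 149 CPM, against 52.0 and 75.6 CPM in macrophages. Xbp1, from few UMIs, was at 24.6 and 9.32 CPM in NK cells, against 110.6 and 119.9 CPM in macrophages. Ern1 and Eif2ak3 had 1 UMI each in WT and 0 in Xbp1dIEC, where a floor of 3 UMIs stands for 28.0 CPM and the upper Poisson bound is 34.4 CPM.

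**Figure D1:**
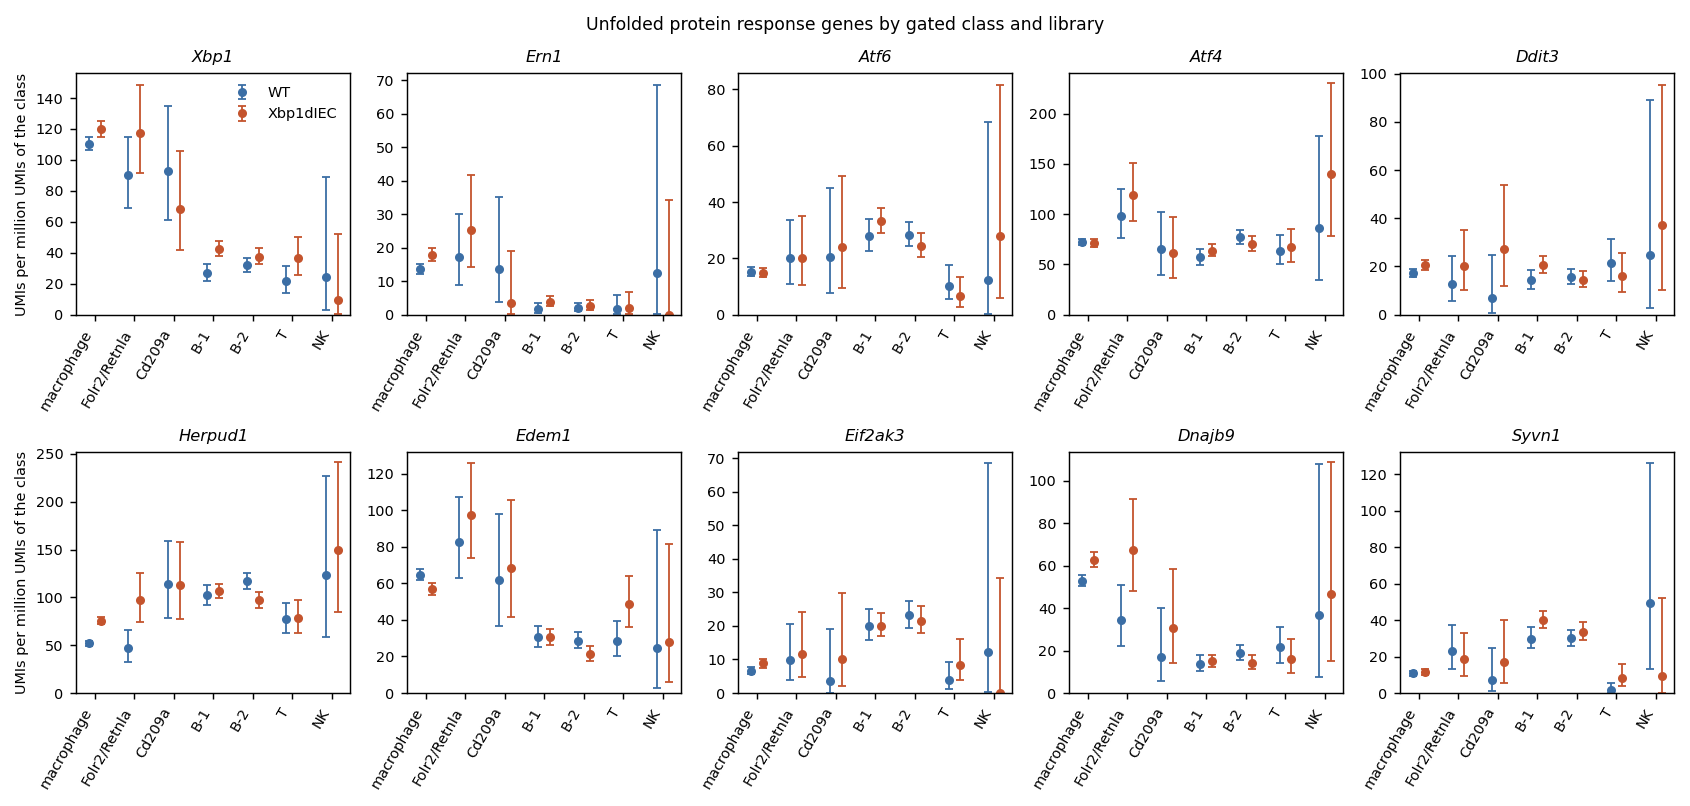
Level of each gene (vertical axis, UMIs per 1000000 UMIs of the class, linear from 0) in the 7 gated classes (horizontal axis) for the WT library (blue) and the Xbp1dIEC library (red). Points are levels of the summed UMIs and bars are exact Poisson intervals. Xbp1, Ern1, Edem1 and Dnajb9 sit higher in macrophages than in B cells, and Atf6, Eif2ak3 and Syvn1 higher in B cells. The bars of NK and Cd209a cells are wide because these classes hold 23 to 36 cells.

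Across the 10 profiles formed by the 5 classes with at least 50 cells in each library, log2(CPM + 1) of the members fell into groups. These correlations are descriptions: the profiles of a class share cell type and those of a library share its mice and depth. Xbp1 correlated with Ern1 (Pearson's r = 0.97), Dnajb9 (0.90) and Edem1 (0.84). Eif2ak3 correlated with Syvn1 (0.92) and Atf6 (0.81). Herpud1 had r = -0.51 with Xbp1 and 0.67 with Eif2ak3. Among genes with 300 or more UMIs, those most like Xbp1 were Acap2, Ctnnd1 and Drap1 (each r = 0.99), and those most like Ern1 were Hal, Tspan14 and Slc44a1 (0.99 to 1.00). Likeness to these myeloid patterns was common, with 776 genes above r = 0.9 for Xbp1 and 1010 for Ern1. Herpud1 had 9 such genes, led by Klhl18 (0.96), Lztfl1 (0.93) and Cml1 (0.92), and Ddit3 had 0, with Sik3 (0.90), Tmem39a (0.87) and Zfp931 (0.86) the most like it. Syvn1 was most like Tnk2, Ckap4 and Lpgat1 (0.99 to 0.98), Eif2ak3 like Txndc16, Cd2ap and Aff1 (0.98 to 0.97), and Atf6 like Ell2, Susd3 and Dag1 (0.97 to 0.96). Edem1 was most like Smox, Axl and Cuta (0.98 to 0.97), Dnajb9 like Dusp1, Cpne8 and Zfp704 (each 0.98), and Atf4 like Pign, Chm and Usp4 (0.96 to 0.95).

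In macrophages, Herpud1 had the largest difference between the libraries, and 7 of the 10 genes were higher in Xbp1dIEC, as were 4423 of all 11443 genes. Herpud1 was at 52.0 CPM in WT and 75.6 CPM in Xbp1dIEC, a log2 ratio of 0.53 (0.43 to 0.65). The IRE1 and PERK genes were both higher: Ern1 went from 13.6 to 18.0 CPM (0.38, 0.19 to 0.62) and Eif2ak3 from 6.58 to 8.83 CPM (0.37, 0.11 to 0.74). Dnajb9 (0.24, 0.13 to 0.36), Ddit3 (0.23, 0.04 to 0.44) and Xbp1 (0.12, 0.04 to 0.20) were also higher by their intervals. Edem1 was lower, at 64.8 and 56.8 CPM (-0.19, -0.30 to -0.08), although like Herpud1 it acts in ER-associated degradation. Atf4 (-0.01, -0.11 to 0.09), Atf6 (-0.04, -0.26 to 0.18) and Syvn1 (0.09, -0.17 to 0.35) had intervals that included 0. No member passed 1.5-fold, which among 11443 genes with 20 or more UMIs was passed by 0.411% upward and 2.65% downward. The median was 0.17 for the members and -0.06 for all genes.

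These macrophage values move with the depth and the scaling, whose part was not tested. Median UMIs per cell were 10286 in WT and 8411 in Xbp1dIEC, and the median mitochondrial share was 2.91% and 3.31%. Among macrophages with 5000 to 10000 UMIs, the log2 ratio was 0.42 for Herpud1 and -0.043 for Edem1. Of the genes past 1.5-fold, 13.4% were higher with scaling to all UMIs, 22.8% when immunoglobulin, mitochondrial and ribosomal protein genes were left out of the total and 27.1% with trimmed mean scaling. Under both of these, 9 of the 10 members were above 0 and 1 passed 1.5-fold upward. Of all 11443 genes, 5405 and 5941 were above 0, and 92 and 80 passed 1.5-fold upward. After thinning to 2000 UMIs, Herpud1 was found in 260 of 2506 WT macrophages (10.4%, exact Clopper-Pearson interval 9.21 to 11.6) and in 330 of 2261 Xbp1dIEC macrophages (14.6%, 13.2 to 16.1). The unthinned shares were 40.2% and 42.7%. The B cell gene Cd79a, which macrophages should lack, was found after thinning in 5.31% and 4.51% of the same cells. Herpud1 UMIs were spread over cells in both libraries, with at most 5 UMIs in a WT cell and 7 in an Xbp1dIEC cell, and with 24.6% and 26.3% of the UMIs in the top 5% of cells.

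**Figure D2:**
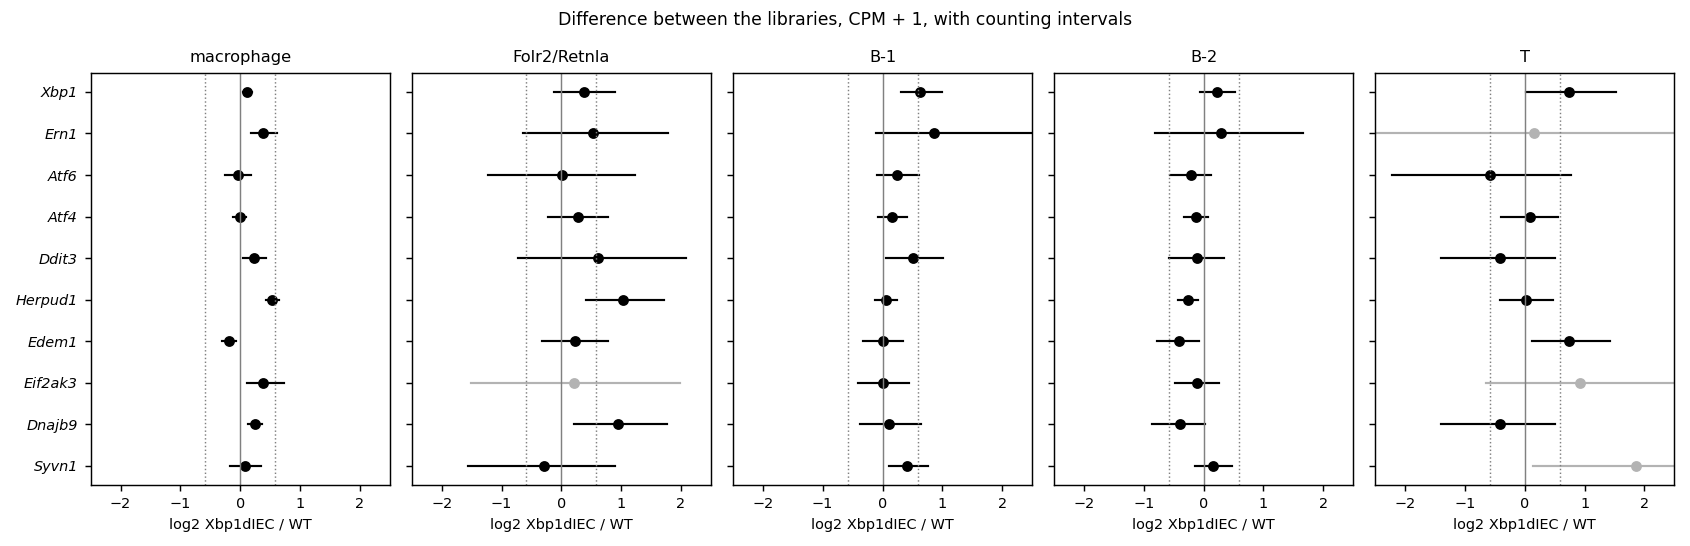
Log2 ratio of Xbp1dIEC over WT on CPM + 1 (horizontal axis) for each gene (vertical axis) in the 5 classes with at least 50 cells in each library. Lines are exact conditional binomial intervals of counting error, clipped at the panel edges, dotted lines mark 1.5-fold, and grey marks genes with under 20 UMIs. Herpud1 stands at 0.53 in macrophages and at -0.26 in B-2 cells, and Xbp1 at 0.63 in B-1 cells.

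Within macrophages some members varied with cell cycle genes. Macrophages with 2 or more UMIs of Mki67, Top2a, Birc5, Ube2c, Ccnb2 and Cdk1 numbered 291 in WT and 109 in Xbp1dIEC. In these cycling cells Dnajb9 was at 37.5 CPM in WT and 31.2 CPM in Xbp1dIEC, against 56.0 and 65.3 CPM in the other macrophages, log2 ratios of -0.56 (-0.82 to -0.34) and -1.04 (-1.54 to -0.63). Xbp1 was lower in cycling cells too, by log2 ratios of -0.47 (-0.64 to -0.31) in WT and -0.50 (-0.78 to -0.24) in Xbp1dIEC, and Herpud1 by -0.35 (-0.60 to -0.13) and -0.77 (-1.17 to -0.42). All 3 genes were thus below the non-cycling level in each library. Atf4 (0.24, 0.08 to 0.41) and Edem1 (0.22, 0.04 to 0.40) were higher in the cycling cells of WT, and both had 0.16 in Xbp1dIEC, with intervals that included 0. For the other 5 members the intervals included 0 in both libraries. In the cycling cells Herpud1 was at 42.0 CPM in WT and 45.3 CPM in Xbp1dIEC (0.11, -0.32 to 0.53), from 179 and 64 UMIs. Among cells under 2 UMIs of cycling genes, Herpud1 was at 53.9 CPM in WT and 78.0 CPM in Xbp1dIEC (0.52, 0.42 to 0.65), close to the ratio in the whole class. The Xbp1 difference between the libraries was 0.08 there, with an interval that just included 0.

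Macrophages with 5 or more UMIs of Cxcl13, a B cell chemoattractant, numbered 503 in WT and 507 in Xbp1dIEC. Herpud1 was at 43.4 CPM in these WT cells and 80.6 CPM in these Xbp1dIEC cells (0.88, 0.65 to 1.14). In macrophages with fewer Cxcl13 UMIs it was at 54.1 and 74.2 CPM (0.45, 0.33 to 0.57). Herpud1 was therefore higher in Xbp1dIEC on both sides of the Cxcl13 split. Whether the sizes differ between the sides was not tested. Ern1 was at 14.9 CPM in both libraries where Cxcl13 was high, and at 13.2 and 18.8 CPM where it was low (0.48, 0.27 to 0.75).

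**Figure D3:**
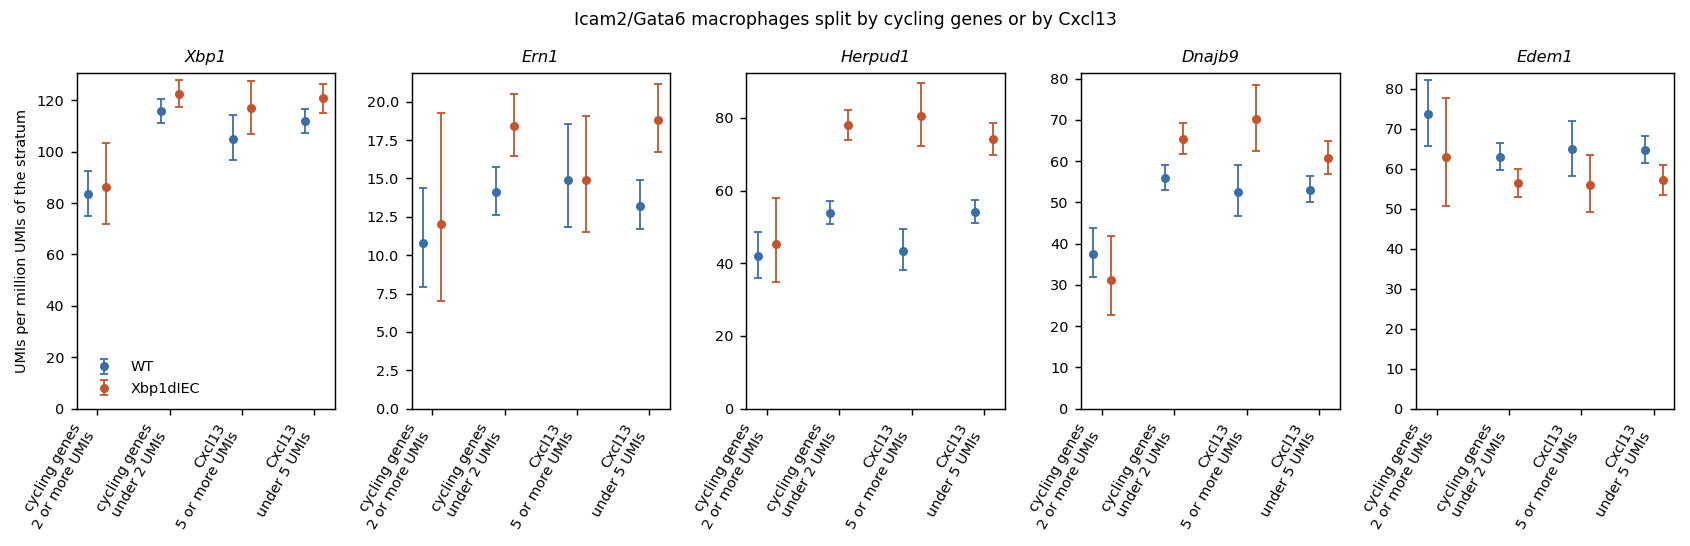
Levels of 5 genes (vertical axes, UMIs per 1000000 UMIs of the stratum, linear from 0) in macrophages split by UMIs of 6 cell cycle genes or by UMIs of Cxcl13 (horizontal axes), WT in blue and Xbp1dIEC in red, with exact Poisson intervals. Xbp1, Herpud1 and Dnajb9 are lower in cells with cycling genes in both libraries, and Herpud1 is higher in Xbp1dIEC in the other 3 strata.

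Folr2/Retnla cells and the myeloid cells outside the named gates showed Herpud1 and Dnajb9 higher in Xbp1dIEC as well. In Folr2/Retnla cells Herpud1 was at 47.1 CPM in WT and 97.5 CPM in Xbp1dIEC (1.03, 0.41 to 1.71) and Dnajb9 at 34.3 and 67.2 CPM (0.95, 0.21 to 1.77). These rest on 33 and 58 UMIs of Herpud1 and on 24 and 40 of Dnajb9. With stricter gates the Herpud1 ratio was 0.38, and with gates on thinned UMIs the ratios were 0.55 for Herpud1 and 0.28 for Dnajb9. Other features of this class differed as well: H2-Ab1, a class II antigen presentation gene, was at 3115 and 1322 CPM, the median mitochondrial share at 2.21% and 3.17%, and median UMIs per cell at 8388 and 6836. Their part in the result was not tested. Of 9 members with 20 or more UMIs, 8 were above 0, as were 2365 of 5337 genes. Upward, 3 members passed 1.5-fold (Ddit3 is the third, with an interval that included 0). Of all genes, 7.98% did so and 11.4% passed it downward. With gates on thinned UMIs 0 members passed it upward. Myeloid cells outside the named gates, 452 in WT and 667 in Xbp1dIEC, had Herpud1 at 59.1 and 89.9 CPM (0.60, 0.34 to 0.87), Dnajb9 at 38.0 and 53.9 CPM (0.49, 0.17 to 0.84) and Eif2ak3 at 5.01 and 12.9 CPM (1.21, 0.51 to 2.305). They come from the same pools of mice and are not independent of the macrophage values. In Cd209a cells every interval of a ratio included 0.

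In B-1 cells, Xbp1 was the member with the clearest difference. It was at 27.1 CPM in WT (99 UMIs) and 42.5 CPM in Xbp1dIEC (291 UMIs), a log2 ratio of 0.63 (0.31 to 0.99). Syvn1 was at 29.8 and 40.1 CPM (0.41, 0.10 to 0.76) and Ddit3 at 14.2 and 20.6 CPM (0.50, 0.06 to 1.02). Ern1 had the largest ratio, 0.86, but from 6 and 26 UMIs and with an interval that included 0 (-0.11 to 2.78). Xbp1 and Ern1 passed 1.5-fold upward, as did 5.43% of 9723 genes, and no member passed it downward, as 4.03% of genes did. All 10 members were above 0, as were 4961 of 9723 genes, with a median of 0.20 against 0.01 for all genes. For Edem1 (0.00, -0.33 to 0.35), Eif2ak3 (0.01, -0.41 to 0.44) and Herpud1 (0.06, -0.12 to 0.24) the difference was near 0. With gates on thinned UMIs the Herpud1 ratio in B-1 cells was 0.27, outside the interval given.

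The B-1 differences move together with other measured features, whose part was not tested. Heat shock and immediate early genes, a list given as a measure of handling stress, were higher in Xbp1dIEC B-1 cells for 8 of 10 measured members. The list had 7 members past 1.5-fold upward, as 5.43% of all genes were in this class, and a median of 0.72. Its summed level was 644 CPM in WT and 1029 CPM in Xbp1dIEC. Hsph1 was at 17.3 and 73.7 CPM, Hspa1a at 5.48 and 21.9 CPM, and Hsp90aa1 at 350 and 606 CPM, and Hspa1b had 0 UMIs in WT and 6.13 CPM in Xbp1dIEC. The median mitochondrial share was 3.85% and 4.49%, and among cells under 5% the median of the members was 0.08. The makeup of the class differed too: cells with Fbxw13 or Prkar2b and no Ahnak2 or Phgdh were 33 of the WT and 138 of the Xbp1dIEC B-1 cells, and those with the reverse were 190 and 175. Xbp1 was at 36.3 and 53.8 CPM in the first kind (0.55, -0.41 to 1.70) and at 26.0 and 37.8 CPM in the second (0.52, -0.03 to 1.12). The ratios within both kinds were close to that of the class, with intervals that included 0. When Ighd was left out of the gates, which made the B-1 class 666 and 985 cells, the Xbp1 ratio was 0.58 and Atf4 and Dnajb9 were at -0.04 and -0.19.

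B-2 cells had Herpud1 and Edem1 lower in Xbp1dIEC. Herpud1 was at 117 CPM in WT and 97.1 CPM in Xbp1dIEC (-0.26, -0.43 to -0.10), and Edem1 at 28.7 and 21.3 CPM (-0.41, -0.78 to -0.08). Dnajb9 was at 18.9 and 14.2 CPM (-0.39, -0.86 to 0.02). Of the 10 members 7 were below 0, as were 58.0% of all genes, and none passed 1.5-fold, against 2.72% of 9679 genes upward and 3.59% downward. The median was -0.12 for the members and -0.05 for all genes. These values depend on which cells count as B-2: in cells gated on thinned UMIs the Herpud1 ratio was -0.05, and among cells of 5000 to 10000 UMIs the Edem1 ratio was 0.0045. Edem1 was past 1.5-fold lower as a mean of CPM per cell (-0.71) and with Ighd left out of the gates (-0.73). Xbp1 was at 32.0 and 37.6 CPM (0.23, -0.06 to 0.53), and at -0.40 with Ighd left out of the gates. Scaling bears on the direction of the background here. Of the genes past 1.5-fold, 43.1% were higher with all UMIs, 57.1% without immunoglobulin, mitochondrial and ribosomal protein genes and 54.6% with the trimmed mean. Under each, 7 of 10 members were below 0, while 5610, 4556 and 4945 of 9679 genes were.

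In T cells Edem1 and Xbp1 were higher in the Xbp1dIEC library. Edem1 was at 28.6 CPM in WT and 48.7 CPM in Xbp1dIEC (36 and 52 UMIs; 0.75, 0.13 to 1.42), and Xbp1 at 21.5 and 36.5 CPM (27 and 39 UMIs; 0.74, 0.02 to 1.53). Syvn1, with 2 and 9 UMIs, was at 1.59 and 8.43 CPM and below the minimum of 20 UMIs. Among the 7 members that met the minimum, Edem1 and Xbp1 passed 1.5-fold upward, where 6.84% of 6708 genes did, and Atf6 downward (13 and 7 UMIs), where 7.11% did. Atf6 was no longer past it with looser gates, among other settings, and its interval included 0. The count past it upward was 1 with 10 CPM added, 1 with the mean of CPM per cell and 0 among cells of 5000 to 10000 UMIs. Of the handling list, 4 of 7 measured genes were higher and 3 lower in these T cells (median 0.03), with Hsph1 past 1.5-fold higher at 26.2 and 49.6 CPM, and Fos (16.7 and 7.49 CPM) and Jun (16.7 and 0.937 CPM) past it lower. Cd209a, a gene of other myeloid cells, was at 51.7 and 118 CPM, Retnla at 213 and 390 CPM and H2-Ab1 at 1070 and 1324 CPM. Prg4 was at 41.4 and 44.0 CPM, Timd4 at 5.57 and 3.75 CPM and Folr2 at 1.59 and 2.81 CPM. The part of these in the result was not tested.

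The pathway around the members was read from lists of genes. In macrophages the ER chaperones, which fold proteins in the ER lumen, were lower in Xbp1dIEC for 15 of 15 genes, with a median log2 ratio of -0.24 against -0.06 for all genes. Calr was at 652 and 513 CPM (-0.35, -0.38 to -0.31), Pdia6 at 263 and 185 CPM (-0.51) and Hspa5, the chaperone BiP that binds the sensors, at 351 and 331 CPM (-0.08, -0.13 to -0.04). None of the 15 passed 1.5-fold, and all were below 0 under each of 3 scalings. Genes of translocation into the ER were lower for 14 of 14 (median -0.18, and 13 of 14 under both other scalings). Of all 11443 genes, 7020 were below 0 with all UMIs, and 6038 and 5502 under the other scalings. Ssr2 was past 1.5-fold lower at 116 and 76.9 CPM (-0.59), as 2.65% of all genes were. Under both other scalings 0 genes of the translocation list passed it. Chaperones thus lay below 0 in the class where Herpud1, Ern1 and Eif2ak3 lay above it.

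Of 16 measured genes of the PERK and ATF4 list, 13 were lower in macrophages (median -0.15). Cebpb, a transcription factor, was an exception at 937 and 1162 CPM (0.31, 0.28 to 0.34), and Psat1, a serine synthesis enzyme, was past 1.5-fold lower at 17.3 and 10.1 CPM (-0.72). Other genes of ER-associated degradation were lower for 9 of 14 (median -0.12), near the 61.3% of all genes that were below 0 in this class, with Derl1 at 297 and 279 CPM and Selenok at 294 and 308 CPM. In the list of the IRE1 and ATF6 arms 7 of 11 were lower (median -0.09), again near that share. In the handling list 6 of 10 were lower, while 3 passed 1.5-fold upward, as 0.411% of all genes did, and 1 downward. Hsph1 was at 12.4 and 21.6 CPM, Hspa1a at 12.9 and 20.6 CPM and Hspa1b at 1.21 and 3.36 CPM, and Egr1 was lower at 3.93 and 1.86 CPM. The part of handling in the macrophage values was not tested.

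B-1 cells had the opposite arrangement of chaperones. In them 13 of 15 were higher (14 of 15 without immunoglobulin, mitochondrial and ribosomal protein genes in the total), with a median of 0.31 against 0.01 for all genes. Of all 9723 genes in this class, 4961 were above 0 and 4762 below it, and 5.43% passed 1.5-fold upward. Hspa5 was at 103 and 177 CPM (0.78, 0.62 to 0.96), Sdf2l1 at 48.5 and 80.7 CPM (0.72, 0.49 to 0.99) and Hyou1 at 4.11 and 7.59 CPM (0.75, 0.03 to 1.82), which were the 3 past 1.5-fold. Ppib was lower at 361 and 333 CPM (-0.12). Genes of ER-associated degradation were lower for 11 of 14 (median -0.13), and translocation genes were divided 7 to 7 (median -0.02). In the IRE1 and ATF6 list, 6 of 11 were higher (median 0.004), near the share of all genes. Mbtps2, the site-2 protease that releases ATF6, was at 5.48 and 10.6 CPM (0.85, 0.23 to 1.75). Nfya, a factor that binds CCAAT, was at 9.04 and 15.6 CPM (0.73, 0.21 to 1.40). In the PERK and ATF4 list 9 of 15 were lower (median -0.04). Without immunoglobulin, mitochondrial and ribosomal protein genes in the total, 6 of 15 were lower, as were 4125 of 9723 genes. Nupr1 was at 11.8 and 6.71 CPM and Eif2ak4, the amino acid sensor GCN2, at 6.02 and 10.6 CPM.

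In B-2 cells chaperones were above 0 for 11 of 15 (median 0.08), where 58.0% of all genes were below 0. The handling list was divided 5 to 5 in B-2 cells. Hsph1 (26.0 and 60.6 CPM) and Hspa1a (4.64 and 11.9 CPM) were past 1.5-fold higher, and Fos (13.4 and 8.12 CPM), Fosb (3.48 and 1.32 CPM) and Egr1 (3.48 and 1.13 CPM) past it lower. ER-associated degradation was below 0 for 9 of 14 genes with scaling to all UMIs, and above 0 for 8 of 14 under both other scalings. In T cells the PERK and ATF4 list was above 0 for 6 of 9 measured genes (median 0.52), with 4 past 1.5-fold, against 6.84% of all genes in this class. Among these, Cebpb was at 20.7 and 41.2 CPM (0.96, 0.26 to 1.75) and Ddit4, an inhibitor of mTOR signalling, at 70.8 and 109 CPM (0.61, 0.21 to 1.03), while Ero1l and Psat1 had intervals that included 0. Cebpb is far higher in macrophages (937 and 1162 CPM), and the myeloid genes Cd209a and Retnla were higher in the same Xbp1dIEC T cells. The macrophage gene Prg4 was at 41.4 CPM in WT and 44.0 CPM in Xbp1dIEC T cells. The part of RNA from myeloid cells in the Cebpb value was not tested. Chaperones were above 0 for 9 of 14 genes in T cells, as were 3366 of 6708 genes. In Folr2/Retnla cells 6 of 14 chaperones were above 0, as were 2365 of 5337 genes.

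**Figure D4:**
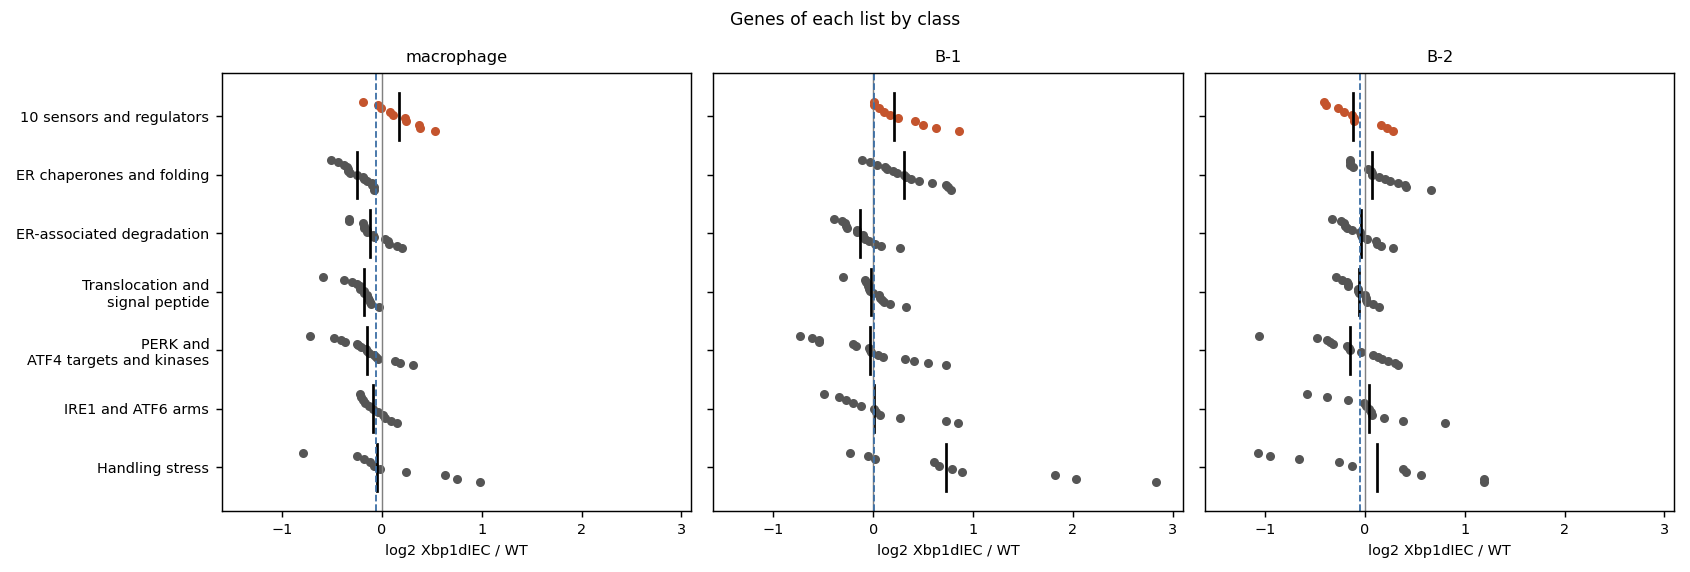
Log2 ratio of Xbp1dIEC over WT on CPM + 1 (horizontal axis) for the 10 genes (red) and for the genes of 6 lists (grey) with 20 or more UMIs in macrophages, B-1 and B-2 cells. Black bars are medians, the solid line is 0 and the dashed blue line is the median of all genes. All 15 chaperones lie below 0 in macrophages, and 13 of 15 lie above 0 in B-1 cells, where Hsph1, Hspa1a and Hspa1b of the handling list lie furthest right.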

How the data were processed

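UMI count matrices, one per library, were deposited by the authors as raw counts per gene and barcode. Per the submitters' processing notes, Cell Ranger 2.2.0 and Seurat 2.3.0 were used with mm10; per the labels' protocols the libraries were Chromium 3′ v2, and cells of 4 mice were pooled and 8700 encapsulated for each library. The annotation used for counting is not given in the sources used here.

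Barcodes with at least 500 UMIs, at least 200 genes and under 10% mitochondrial UMIs were kept (6 and 20 were left out). Doublets were called by scrublet in scanpy 1.11.5 at an expected rate of 5% and removed (140 in WT and 113 in Xbp1dIEC). Cells were gated by UMIs of marker genes (for example, macrophages: 3 or more of Csf1r, Adgre1 and Cd68, and 2 or more of Icam2 and Gata6), each class of each library was treated as 1 sum of UMIs, and log2 ratios were taken on CPM + 1 for classes of 50 or more cells in each library. Intervals of ratios were computed on the rates without the added 1 CPM. The printed ratio of a scarce gene can therefore be smaller in size than the ratio its interval belongs to. Genes with 20 or more UMIs over both libraries formed the background, and 1.5-fold was the threshold for counts. Ratios and intervals were tested on simulated Poisson counts with no variation between mice or libraries, so that check covers counting error only. All 10 members are named. Of each list, the named genes are among its 2 with the most UMIs, those past 1.5-fold with 30 or more UMIs, and Pdia6 and Hspa5 in macrophages and Fos, Fosb, Egr1 and Jun in B-2 or T cells, which were chosen after their values were seen. The members, gates and lists were chosen with earlier results of these data known. Selenos and Selenok were matched by gene ID.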

Additional observations from a re-analysis of the deposited data

Results flagged for a closer look

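The genotype difference had opposite directions in different classes for 2 members, with intervals on opposite sides of 0. The differences between classes were not tested. Herpud1 had a log2 ratio of 0.53 in macrophages and 1.03 in Folr2/Retnla cells but -0.26 in B-2 cells, gaps of 0.80 and 1.30. Edem1 had 0.75 in T cells, against -0.19 in macrophages and -0.41 in B-2 cells, gaps of 0.93 and 1.16. The T cell value rests on 36 and 52 UMIs.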

How the results depend on the processing

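Each member's ratio in 5 classes was recomputed under 14 alternatives, 13 planned and 1 chosen after seeing the data (Ighd left out of the gates). Of 700 values, 684 stayed within the interval given with the reported ratio, 15 moved out of it and 1 changed sign from a ratio whose interval had excluded 0: Edem1 in B-2 cells was 0.0045 among cells of 5000 to 10000 UMIs. There Herpud1 in macrophages was 0.42 and Edem1 -0.043, with 14 of 14 alternatives of the reported sign for both genes. The ratio of Herpud1 in macrophages ran from 0.42 to 0.60, and that of Xbp1 in B-1 cells from 0.50 to 0.79. The count of members past 1.5-fold upward was 2 in B-1 cells, and 0 with 10 CPM added, 1 with gates on thinned UMIs and 1 with Ighd left out. In macrophages it was 0, and 1 without immunoglobulin, mitochondrial and ribosomal protein genes in the total and 1 with trimmed mean scaling. Of 11443 genes, 92 and 80 passed it upward under those scalings. With 100 or more UMIs the share of genes past 1.5-fold upward was 1.92% in Folr2/Retnla cells, 2.99% in B-1, 1.17% in B-2 and 1.18% in T cells, and downward 3.66%, 2.18%, 1.47% and 0.904%. With no filter these shares were 19.3% and 22.6% in Folr2/Retnla cells and 17.2% and 17.4% in T cells. No paired analysis was possible because each genotype has 1 library. Folr2/Retnla, Cd209a and NK cells are limited most by their number of cells, and T cells also by their UMIs per cell.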
